A study of Mus musculus with 2 samples.

Results

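Potassium channel genes were compared between 1 RNA sequencing library of control embryonic mouse forebrain and 1 library of H2A.Z conditional knockout forebrain. The genes were chosen by name: every listed gene whose symbol starts with Kcn, leaving out Kcne2, Kcnj13 and the noncoding transcript Kcnq1ot1. This gave 84 of the 19720 genes in the table, and 68 of the 84 reached 20 reads over both libraries together and are called measured. The control mice carried floxed H2A.Z alleles (H2AZfl/fl), although their sample title says WT, and the knockout was H2AZcKO. Both groups were C57BL/6. The sample titles give embryonic day 16 and the stage field gives day 12, so the age cannot be settled. The tissue field says telencephalic tissue whereas the protocol for RNA speaks of cerebral cortex. Neither the Cre driver nor any pooling of embryos is stated in the sources used here. The design text speaks of triplicates, whereas the table holds 1 count column for each genotype. Differences below are therefore between 2 libraries, without a replicate check, and intervals (95%, Clopper-Pearson, from how a gene's reads split between the libraries) cover only the error of counting reads. Where a pair of read counts is given, the control comes first.

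Potassium channels let potassium ions leave the cell, which sets the resting potential and ends each action potential. Voltage-gated channels open on depolarisation, inward rectifiers hold the membrane near rest, tandem-pore (K2P) channels carry leak current, and a further class opens on internal calcium or sodium. Pore-forming subunits assemble with auxiliary subunits that set their gating and their delivery to the membrane. In the embryonic forebrain these genes are shared between progenitors, glia and newborn neurons, and many are expressed more strongly as neurons mature.

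The targeted gene H2afz, on chromosome 3, had 1152 control reads and 535 knockout reads (log2 ratio -1.16, -1.31 to -1.01). Library totals were 8474545 and 9028523 reads, and ratios were scaled by the TMM method. The regional and tissue markers were not level between the libraries. Of 18 markers of ventral telencephalon and striatum, 10 were higher by at least 1.5-fold and 0 lower, and their summed level was 912 TMM-scaled CPM in the control and 1347 in the knockout. None of them had 0 reads in either library. Of 10 measured choroid plexus markers, 9 were lower and 1 higher, with sums of 799 and 15.1 CPM, and Calml4 and Kcnj13 had 0 knockout reads. Of 10 meningeal markers 9 were lower as well, with sums of 255 and 20.7 CPM and no marker at 0. Of 10 measured markers of thalamus, hypothalamus and midbrain 6 were higher and 0 lower, with a median log2 ratio of 1.26. Shox2 and En1 had 0 control reads, and Tcf7l2 had 111 and 1017 reads. The sums of this list, 521 and 611 CPM, lean on Lhx2. That gene gave 3522 of the 4470 control reads and 3140 of the 5446 knockout reads. Of 10 pan-neuronal markers 1 was higher and 9 had ratios above 0, with sums of 5508 and 6118 CPM. Cortical projection neuron markers were level, with 0 of 10 apart and sums of 3385 and 3327 CPM. Endothelial markers had 1 of 10 lower, with sums of 295 and 258 CPM, and microglial markers 3 of 9 lower and 1 higher, with sums of 59.0 and 43.9 CPM. Slco1a4 was the single marker at 0 reads in these last 4 lists, in the knockout library. The part of these differences in the potassium channel values was not tested. In bulk tissue, fewer cells of a type and less RNA per cell cannot be told apart.

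As a group the potassium channel genes were close to level, with 5 members higher in the knockout library and none lower beyond counting error at the same fold. Among the 68 measured members, those higher by at least 1.5-fold were 5: Kcnh1, Kcnmb2, Kcnc4, Kcnk3 and Kcna3. Among all 14366 measured genes the share at least 1.5-fold higher was 3.52%, against 7.35% of the members. Under TMM scaling the interval of each of these 5 also left out a ratio of 1, and 2.02% of all measured genes met both conditions. The single member at least 1.5-fold lower was Kcnk6, and its interval included level. Lower by at least 1.5-fold were 5.43% of all measured genes, and 3.2% were also beyond counting error, against 1.47% and 0 of the members. The median log2 ratio of the measured members was 0.06, beside 0.0021 for all measured genes. With scaling by library total the split became 4 higher and 2 lower, because Kcna3 passed below 1.5-fold and Kcnj9 passed beyond it.

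**Figure D1:**
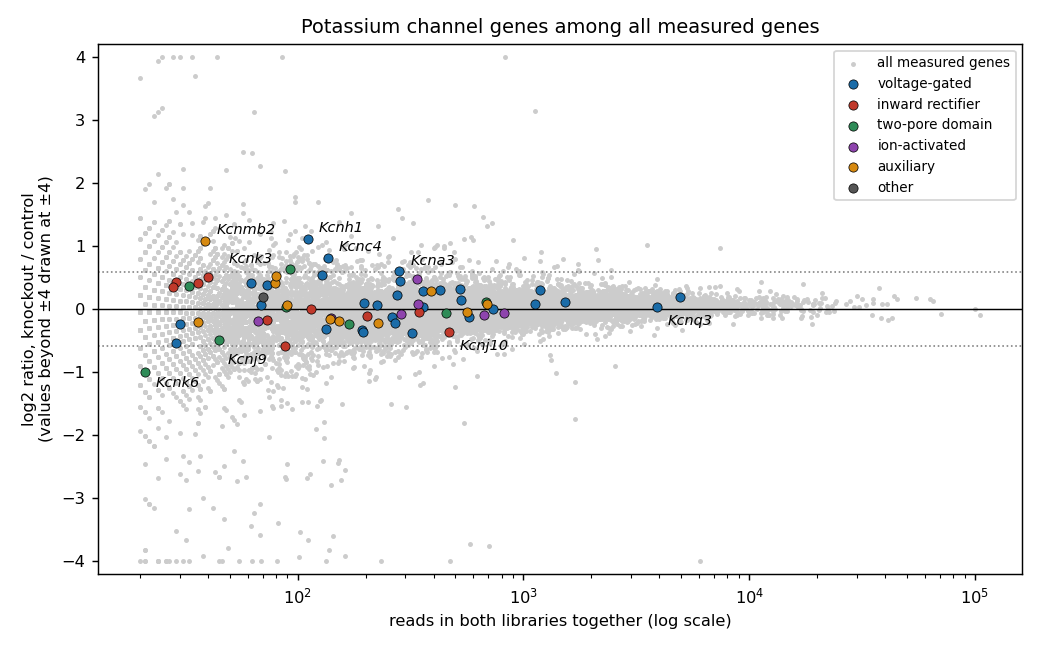
Log2 ratio of knockout to control (vertical axis, values beyond 4 drawn at the edge) against the reads of both libraries together (horizontal log axis), with 1 point for each of 14366 measured genes in grey and 68 potassium channel genes coloured by class. Dotted lines mark 1.5-fold; 5 coloured points lie above the upper line and 1, Kcnk6, lies below the lower line.

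The share of genes apart depends on read depth, so the members were also set beside genes of like depth. In the range of 100 to under 1000 reads, 3 of 40 members (7.5%) were at least 1.5-fold higher and 0 lower, beside 2.19% and 2.83% of the 6814 genes there. With 20 to under 100 reads, 2 of 23 members were higher (8.70%) and 1 lower (4.35%), beside 11.5% and 19.6% of 2966 genes. With 1000 reads or more, none of 5 members was apart, and 0.349% and 0.153% of the genes there were. These are counts of 3 members or fewer in each range and describe these libraries only. At any fold, 12 members were higher beyond counting error and 2 were lower, beside 12.5% and 9.3% of all measured genes. Among the 12 were the 5 above and Kcnc1, Kcnd2, Kcnh2, Kcnh4, Kcnh8 and Kcnma1, and the 2 lower were Kcnh3 and Kcnj10. With scaling by library total, 9 members were higher beyond counting error and 2 lower. Kcnk3, Kcnh2 and Kcnh8 had the lower limits nearest level under TMM, at log2 values of 0.015, 0.015 and 0.0087.

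**Figure D2:**
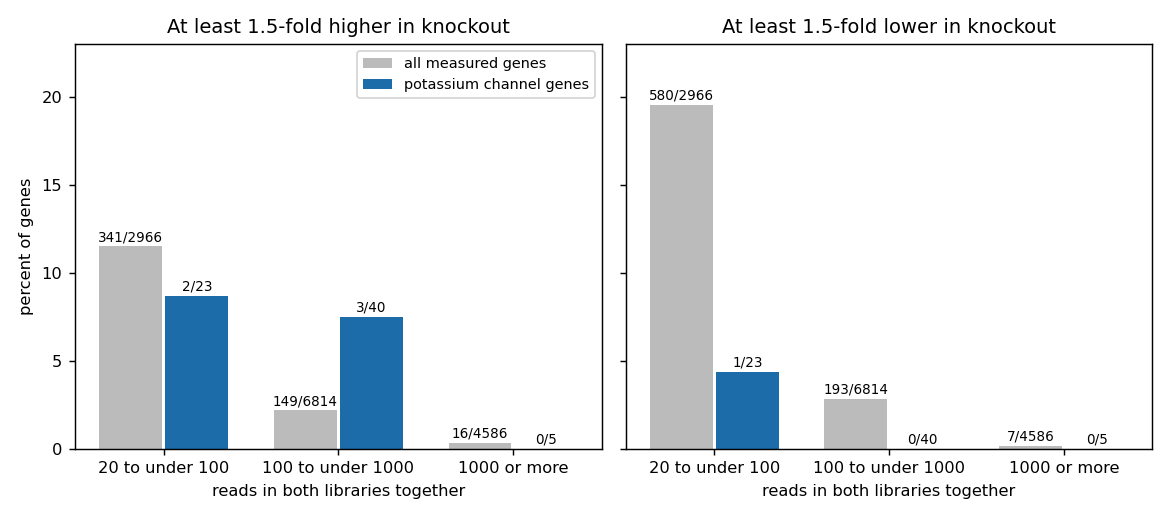
Percent of genes higher (left) or lower (right) in the knockout by at least 1.5-fold, by reads in both libraries together, for all measured genes (grey) and potassium channel genes (blue); labels give the number of genes. In the range of 100 to under 1000 reads the blue bar is taller on the left (3 of 40) and absent on the right (0 of 40).

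Kcnh1, which encodes the ether-a-go-go channel Kv10.1, had the largest ratio among measured members. It lies on chromosome 1 from 192190774 to 192510159 (GRCm38). The control library held 34 of its reads and the knockout library 77, which is 2.16-fold higher (1.44 to 3.36). It was 1 of 2 members marked significant in the authors' deposited table, where its values were 4.01 and 8.53 CPM. The authors' deposited table marks 318 of all listed genes (1.61%).

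Kcna3, which encodes the delayed rectifier Kv1.3, had 109 control reads and 173 knockout reads, 1.52-fold higher (1.19 to 1.96). It was the most deeply read of the 5 higher genes and the nearest to the 1.5-fold limit. Per length it stood eighth of the members in the control library (rank 8, at 6.68 RPKM, reads per kilobase of exon at equal depth) and rank 3 in the knockout library (10.2 RPKM). Kcnc4, which encodes the fast-inactivating channel Kv3.4, had 48 and 88 reads, 1.76-fold higher (1.23 to 2.56). Both lie on chromosome 3, Kcna3 from 107036169 to 107038070 and Kcnc4 from 107438303 to 107459552.

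Kcnk3, the gene of the acid-sensitive leak channel TASK-1, had 35 control and 57 knockout reads, 1.56-fold higher (1.01 to 2.46). With a prior of 5 reads its log2 ratio was 0.58 and it no longer reached 1.5-fold. With scaling by library total that ratio went from 0.64 to 0.61, a shift larger than the distance of its lower limit (0.015) from level. The gene lies on chromosome 5 from 30588170 to 30625271. Of its exon bases 5.76% are shared with a gene model on the opposite strand, Gm9899. Kcnmb2, the gene of an auxiliary subunit that inactivates calcium-activated BK channels, had 12 and 27 reads, 2.12-fold higher (1.06 to 4.69). It lies on chromosome 3 from 31902507 to 32200180. Its 39 reads gave the widest interval of the 5. Each of the 5 had at least 12 reads in each library.

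Upstream sequence is shown for Kcnh1 and Kcna3, higher genes for which most or all of the window before the start lay ahead of any annotated exon, and for the neighbours Kcnj10 and Kcnj9, which had the lowest ratios among measured inward rectifiers. Bases run 5′ to 3′ on the strand of the gene, from RefSeq on GRCm38.p6, cut where an exon of GENCODE M21 begins. Capitals mark each CG dinucleotide, a pair that reads the same on both strands, and the motif TATAAA.
Kcnh1, chr1:192190527-192190773, plus strand: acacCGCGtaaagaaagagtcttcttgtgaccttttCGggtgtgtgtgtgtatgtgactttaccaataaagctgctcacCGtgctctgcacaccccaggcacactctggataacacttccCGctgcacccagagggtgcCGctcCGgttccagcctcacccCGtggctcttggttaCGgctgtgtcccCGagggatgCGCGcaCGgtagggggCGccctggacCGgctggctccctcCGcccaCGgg
Kcna3, chr3:107035912-107036161, plus strand: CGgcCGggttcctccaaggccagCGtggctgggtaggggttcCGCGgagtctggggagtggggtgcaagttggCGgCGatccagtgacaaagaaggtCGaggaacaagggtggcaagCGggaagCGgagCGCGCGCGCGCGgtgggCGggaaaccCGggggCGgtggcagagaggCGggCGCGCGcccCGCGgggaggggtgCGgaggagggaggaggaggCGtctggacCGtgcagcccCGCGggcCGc
Kcnj10, chr1:172340960-172341209, plus strand: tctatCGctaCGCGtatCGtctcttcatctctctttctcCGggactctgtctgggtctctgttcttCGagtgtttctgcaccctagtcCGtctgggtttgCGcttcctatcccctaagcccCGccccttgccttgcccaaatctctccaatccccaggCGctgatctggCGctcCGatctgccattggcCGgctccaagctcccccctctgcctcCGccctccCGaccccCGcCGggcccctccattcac
Kcnj9, chr1:172329323-172329572, minus strand: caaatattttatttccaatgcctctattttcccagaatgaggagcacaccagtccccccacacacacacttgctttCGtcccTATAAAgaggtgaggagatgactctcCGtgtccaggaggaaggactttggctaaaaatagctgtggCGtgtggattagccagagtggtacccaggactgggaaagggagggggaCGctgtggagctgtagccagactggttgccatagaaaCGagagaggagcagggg

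The Kcna3 window held 31 CG pairs, Kcnh1 17, Kcnj10 17 and Kcnj9 5. The 250-base windows of Kcnc4 and Kcnmb2, which overlap annotated exons and are not printed, held 12 and 8. Windows with many and with few CG pairs were found in this neighbouring pair and among the higher genes with a window. Of these higher genes, Kcnmb2 alone held fewer than 10, and only 54 bases of its window lie ahead of an annotated exon. No window was found for Kcnk3. Windows were found for 60 of the 84 members, 48 of them measured, and the most upstream start was taken for each. Of these 48, 28 (58.3%) held at least 10 CG pairs, beside 75.3% of 10710 measured genes with a window, and the medians were 13 and 16. TATAAA, searched on both strands, was found in 1 of the 48 windows, that of Kcnj9, and in 6.09% of the 10710.

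Voltage-gated pore subunits formed the largest class, with 37 listed genes and 31 measured. Of these 31, 3 were at least 1.5-fold higher, 0 lower and 28 level by that limit. Over all measured genes 3.52% were higher and 5.43% lower, shares that stand beside the class counts below as well. In this class 21 genes had ratios above 0, and the median log2 ratio was 0.09. The class held 69.2% of the potassium channel reads of the control library and 71.1% of those of the knockout. Its summed level was 1067 CPM against 1162 CPM in the knockout (log2 ratio 0.12, 0.08 to 0.16). Summed reads follow the most abundant genes of a class.

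Kcnq3 encodes a subunit of the M-current, the slow brake on neuronal firing. It had 1892 and 2010 reads (log2 ratio 0.03, -0.06 to 0.12), and its level per length was 14.997 RPKM in the control and 15.3 RPKM in the knockout library. Kcnq5, another M-channel subunit gene, had 108 and 117 reads, with an interval across level. Kcnq1, the gene of a channel of heart and epithelia, had 4 and 13 reads, under the read minimum, and its interval included level (-0.05 to 3.72, log2). It shares 2.96% of its exon bases with Kcnq1ot1 on the opposite strand.

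The Kv1 family had 6 measured genes, and Kcna3 was the single one apart. Kcna2 and Kcna1, whose products gather along axons, had 173 and 185 reads and 105 and 87 reads. Kcna6 had 158 and 200 reads, with a log2 ratio of 0.28 (-0.02 to 0.59). Kcna4 had 31 and 42 reads and Kcna5 16 and 14, depths at which only larger differences could be seen. The summed log2 ratio of the family was 0.19 (0.03 to 0.35).

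Among Kv3 genes, whose products allow fast firing, Kcnc4 and Kcnc1 were higher beyond counting error and Kcnc2 was not. Kcnc1 had 518 and 661 reads (log2 ratio 0.29, 0.13 to 0.46). Kcnc2 had 108 and 87 reads (log2 ratio -0.37, -0.79 to 0.05).

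Kcnb2 and the Kv4 genes were level by the 1.5-fold limit. Kcnb2, which encodes a Kv2 delayed rectifier, had 245 and 282 reads. The A-type gene Kcnd3 had 719 and 812 reads (log2 ratio 0.12, -0.03 to 0.27). Kcnd2, its close relative, had 227 and 294 reads (log2 ratio 0.32, 0.06 to 0.57), higher beyond counting error but by 1.24-fold. Kcnd1, on the X chromosome, had 73 and 61 reads, with level inside its interval.

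The ether-a-go-go family had 8 measured genes, of which 4 were higher and 1 lower beyond counting error. Over all measured genes these shares were 12.5% and 9.3%. Beside Kcnh1, the higher ones were Kcnh2 (the hERG channel gene, 187 and 239 reads), Kcnh4 (117 and 166 reads) and Kcnh8 (51 and 77 reads). Their log2 ratios were 0.30 (0.02 to 0.58), 0.45 (0.10 to 0.80) and 0.53 (0.01 to 1.08). The lower limits of Kcnh2 and Kcnh8, 0.015 and 0.0087, lay nearer to level than the shift under scaling by library total. Kcnh3, which encodes Kv12.2, a channel of forebrain neurons, had 179 and 143 reads and was lower, with a log2 ratio of -0.38 (-0.71 to -0.06). Kcnh7 was the deepest of the family at 535 and 587 reads, with a log2 ratio of 0.08 (-0.09 to 0.25). Kcnh5, the close relative of Kcnh1, had 33 and 36 reads (log2 ratio 0.07, -0.65 to 0.80). Kcnh6, at 17 and 12 reads, had the lowest ratio among measured genes of the class, at -0.54 (-1.76 to 0.59).

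Silent subunits, which form no channel alone and modify Kv2, were less deeply read, except Kcng1. Kcng1 had 360 and 373 reads (log2 ratio -0.0053, -0.22 to 0.21), and at 9.31 and 9.28 RPKM it ranked among the highest members per length. Kcnv1 had 124 and 150 reads, Kcnf1 93 and 103, and Kcns2 26 and 36, each with an interval across level. Kcng2, Kcng3, Kcng4, Kcns1 and Kcns3 had 3 to 18 reads in both libraries together and were not measured.

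**Figure D3:**
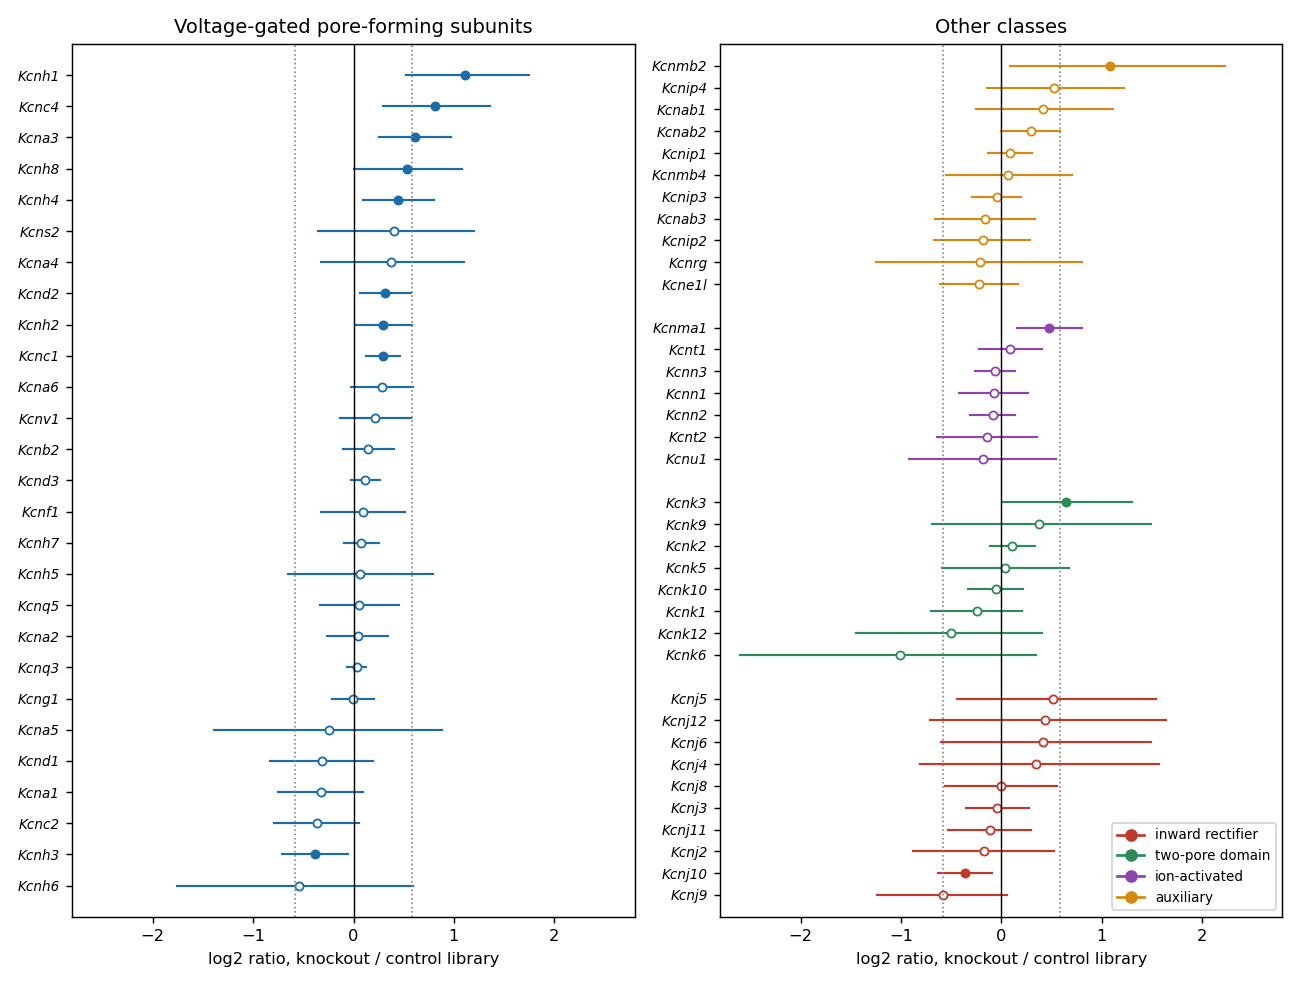
Log2 ratio of knockout to control (horizontal axis) for 63 of the 68 measured potassium channel genes, by class, with 95% counting intervals; filled points have intervals that leave out 0 and dotted lines mark 1.5-fold. The noncoding Kcnmb4os2 and some others are not drawn; filled points are 11 on the right of 0 and 2, Kcnh3 and Kcnj10, on the left.

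Inward rectifier genes numbered 13, and none of the 10 measured was 1.5-fold apart. Their median log2 ratio was -0.02, or 0.0005 with DESeq2 size factors, so its sign was not fixed. Summed over the class there were 748 control and 697 knockout reads (log2 ratio -0.16, -0.31 to -0.0076). The upper limit lay nearer to level than the shift of the median with DESeq2 size factors. The summed ratio was the lowest of the 5 channel classes. Kcnj10 alone gave 259 of the 748 control reads and 210 of the 697 knockout reads, so the sum leans on this gene.

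Kcnj10, the gene of the glial channel Kir4.1 that clears potassium around neurons, had 259 control reads and 210 knockout reads. Its log2 ratio was -0.36 (-0.63 to -0.09), or 1.28-fold lower. Markers of astrocytes and radial glia had summed levels of 1762 and 1617 CPM, a log2 ratio of -0.12 (-0.16 to -0.09), with 0 of 10 at least 1.5-fold apart, 9 below 0 and none at 0 reads. The part of glial markers in the Kcnj10 value was not tested. Kcnj16, which encodes the partner subunit Kir5.1, had 5 and 1 reads. Kcnj9 lies beside Kcnj10 on chromosome 1 and encodes a G protein-gated subunit. It had 52 and 36 reads (log2 ratio -0.58, -1.24 to 0.05), just inside the 1.5-fold limit.

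The other G protein-gated subunit genes, whose channels slow neurons in response to transmitters, had intervals across level, like Kcnj9. Kcnj3 had 172 and 174 reads (log2 ratio -0.04, -0.35 to 0.27), although 31.1% of its exon bases overlap a gene model on the opposite strand. Kcnj5 had 16 and 24 reads, the highest ratio among measured genes of the class, 0.52 (-0.44 to 1.54), and Kcnj6 15 and 21. With 50 reads in all the smallest excess beyond counting error is 1.84-fold, and both genes had fewer, so differences below this size were not detectable.

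The ATP-sensitive genes Kcnj11 and Kcnj8, which tie excitability to metabolism, were level by the 1.5-fold limit. Kcnj11 had 103 and 99 reads (log2 ratio -0.11, -0.53 to 0.30). Kcnj8, which in brain is mainly a gene of pericytes, had 56 and 58 reads (log2 ratio -0.0058, -0.56 to 0.55). Markers of pericytes and smooth muscle had summed levels of 254 and 239.8 CPM, with 3 of 9 measured ones at least 1.5-fold lower, 1 higher and none at 0 reads. Abcc9 and Abcc8, the sulfonylurea receptor genes that pair with these channels, had 211 and 315 reads and 512 and 447 reads. Abcc9 had a log2 ratio of 0.52 (0.27 to 0.78) and Abcc8 of -0.25 (-0.44 to -0.07). Of the strong rectifier genes, Kcnj2 had 38 and 35 reads, Kcnj4 12 and 16, and Kcnj12 12 and 17. Kcnj14 and Kcnj15 had 3 and 3 and 5 and 3 reads.

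Tandem-pore genes, which give neurons and glia their leak conductance, numbered 11, with 8 measured. Of these, Kcnk3 was higher, Kcnk6 lower and 6 level by the 1.5-fold limit. The median log2 ratio was -0.0080, and 0.02 with DESeq2 size factors. Kcnk2, the gene of the stretch-sensitive channel TREK-1, was the highest per length at 7.57 and 8.16 RPKM. It had 321 and 360 reads (log2 ratio 0.11, -0.11 to 0.33), and shares 12.2% of its exon bases with a gene model on the opposite strand. Its relative Kcnk10 had 226 reads in each library, a log2 ratio of -0.06 (-0.33 to 0.22).

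Kcnk1, the gene of the weakly conducting channel TWIK-1, had 90 and 79 reads (log2 ratio -0.24, -0.70 to 0.21). Kcnk9, the gene of TASK-3 and the closest relative of Kcnk3, had 14 and 19 reads (log2 ratio 0.37, -0.69 to 1.49). Kcnk6, which encodes TWIK-2, had 14 control reads and 7 knockout reads, 2.01-fold lower, with an interval from 6.09-fold lower to 1.27-fold higher. It reached the read minimum only through its control reads. Kcnk5 had 43 and 46 reads and Kcnk12, a silent member, 26 and 19. The difference for Kcnk6 and Kcnk12 was not detectable at this depth. Kcnk4, Kcnk13 and Kcnk18 had 5, 15 and 3 reads in both libraries together.

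The 7 listed genes grouped as calcium- or sodium-activated channels, with Kcnu1 placed there by family, were all measured, and none was 1.5-fold apart. Their median log2 ratio was -0.08 and their summed ratio was 0.0096 (-0.10 to 0.12). The small-conductance genes Kcnn1, Kcnn2 and Kcnn3, whose channels follow each spike with a slow pause, had nearly equal ratios. Their reads were 144 and 142 for Kcnn1, 338 and 331 for Kcnn2, and 412 and 410 for Kcnn3. Kcnma1, the gene of the large-conductance BK channel, was the exception in this class. It had 138 and 200 reads (log2 ratio 0.48, 0.16 to 0.80), or 1.39-fold higher. The sodium-activated genes Kcnt1 and Kcnt2 had 162 and 179 reads and 72 and 68 reads. Kcnu1, known as the gene of a sperm channel, had 35 and 32 reads and the lowest ratio of the class at -0.18 (-0.92 to 0.55).

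**Figure D4:**
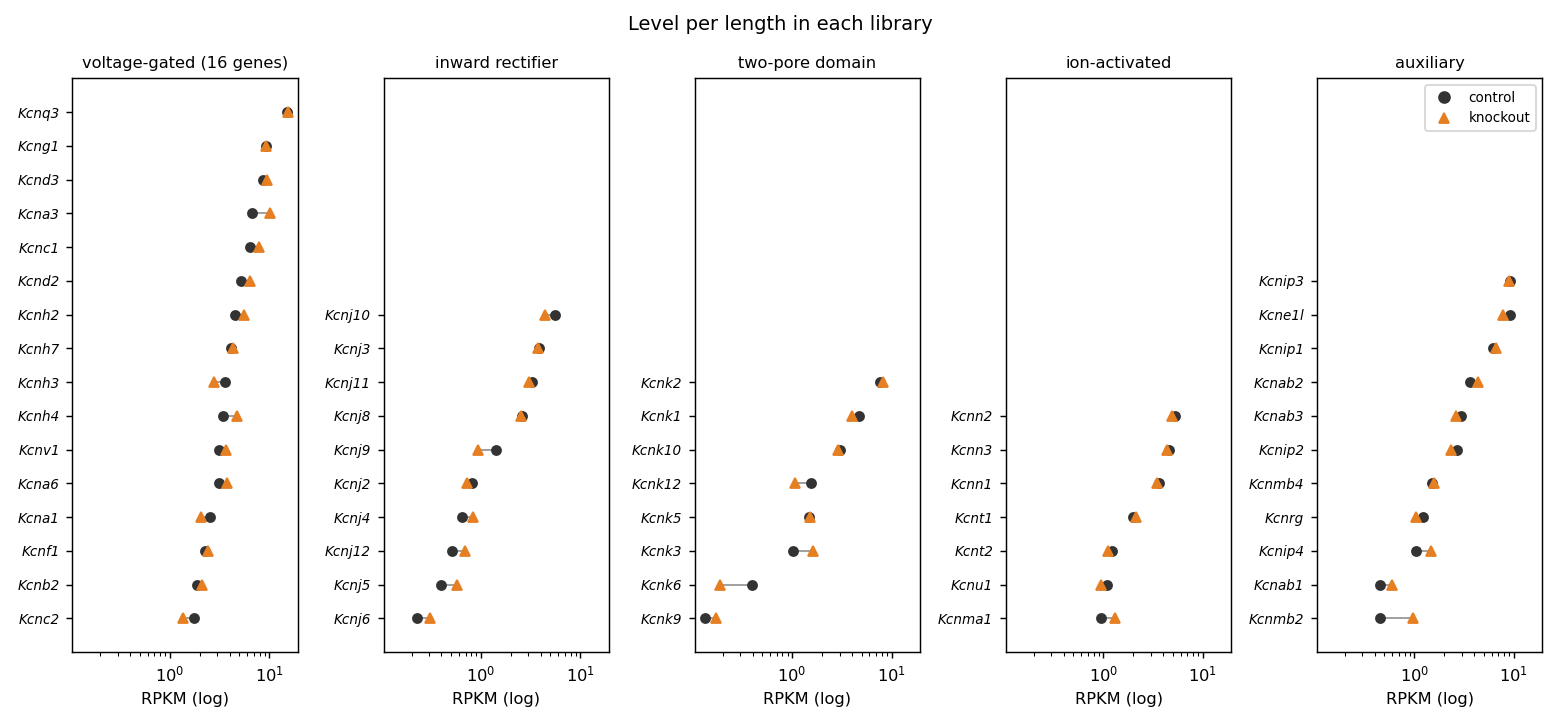
Level per length (RPKM, log axis) of measured potassium channel genes in the control library (circles) and knockout library (triangles), by class. Only 16 of the 31 measured voltage-gated genes are drawn, so the full measured set is not shown. Of the genes drawn, Kcnq3 is highest in both libraries, and the widest gaps are at low levels, such as Kcnmb2 and Kcnk6. Among all measured members, drawn or not, the largest ratio was that of the voltage-gated gene Kcnh1 (0.54 RPKM in the control and 1.18 in the knockout).

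Auxiliary subunit genes numbered 13, with 11 measured, 1 at least 1.5-fold higher and 0 lower. Kcnmb2 was the higher one. Kcnmb4, which encodes the neuronal BK partner subunit, had 43 and 47 reads (log2 ratio 0.07, -0.56 to 0.70), and shares 20.8% of its exon bases with Kcnmb4os2. Thus of the genes for the BK complex, Kcnma1 and Kcnmb2 were higher beyond counting error and Kcnmb4 was not. Kcnmb1 had 2 and 1 reads.

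KChIP genes, whose products bind Kv4 channels and sense calcium, were level by the 1.5-fold limit. Kcnip1 had 329 and 363 reads and Kcnip3 280 and 282, with log2 ratios of 0.09 (-0.13 to 0.31) and -0.05 (-0.29 to 0.20). Kcnip3 stood at 9.21 and 8.92 RPKM, the highest level per length in this class in both libraries. Kcnip2 had 80 and 73 reads and Kcnip4 32 and 48.

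The cytoplasmic beta subunit genes of Kv1 channels had 172 and 219 reads for Kcnab2, 33 and 46 for Kcnab1, and 72 and 67 for Kcnab3. The interval of Kcnab2 just reached level, with a log2 ratio of 0.29 (-0.0027 to 0.59). Kcne1l, an X-linked membrane subunit gene, had 120 and 107 reads and the lowest ratio among measured genes of the class, at -0.22 (-0.61 to 0.17). Kcnrg, which encodes a suppressor of channel assembly, had 19 and 17 reads. Kcne4 had 6 control reads and 1 knockout read. Kcne2 and Kcnj13, left out of the group and on the choroid plexus marker list, had 130 and 4 reads and 11 and 0 reads. Their log2 ratios, -4.91 and -4.55, lay far below those of the measured genes of their families here. Kcne4 and Kcnj16, under the read minimum, had wide intervals (-8.17 to 0.40 and -7.94 to 0.78) that include these values.

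Of 3 noncoding transcripts with Kcn symbols, Kcnmb4os2 was measured, at 32 and 38 reads. Kcnd3os, on the strand opposite the start of Kcnd3, had 10 control reads and 0 knockout reads. It was under the read minimum in both libraries together, and its 95% counting interval began at 2.33-fold lower, with no upper limit. It shares 12.2% of its exon bases with Kcnd3, and the strand setting of the counting is not given, so reads in the shared stretch cannot be assigned. It was the other member marked significant in the authors' deposited table. Kcnab3os had 1 and 2 reads.

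By position, 3 of the 5 higher genes lie on chromosome 3, a chromosome singled out after the values were seen. Of 8 members there, 7 were measured, and 3 of the 7 were at least 1.5-fold higher, beside 4.69% of the 747 measured genes of that chromosome, and 2.81% with counting error met as well. Kcna3 and Kcnc4 belong to 1 cluster, from 107036169 to 107459552, with Kcna2 between them. Kcna2 had a log2 ratio of 0.04 (-0.27 to 0.35), so the 3 members listed in this cluster were not all apart. The targeted H2afz lies 30.4 Mb from Kcnc4 and 106 Mb from Kcnmb2. Outside chromosome 3 the higher genes were Kcnh1 and Kcnk3.

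Partner genes that carry no Kcn symbol were also mostly level by the 1.5-fold limit. On a list of 24 relatives, auxiliary proteins and anchors, 21 were measured and 0 were 1.5-fold apart, with a median log2 ratio of 0.06. Of these 21, Abcc9 had the highest ratio, given above. Cntnap1, the gene of an axonal adhesion protein at nodes, had the lowest, at -0.41 (-1.08 to 0.25) with 46 and 36 reads. Dpp6, which encodes a Kv4 auxiliary subunit, had 672 and 896 reads (log2 ratio 0.36, 0.21 to 0.50). Cntnap2, whose product clusters Kv1 channels on axons, had 780 and 1085 reads (log2 ratio 0.42, 0.29 to 0.55). Others on the list did not share this direction: Dpp10 had 276 and 288 reads, and Cntn2 8753 and 8397 (log2 ratio -0.12, -0.16 to -0.07). At any fold, 5 of the 21 were higher and 3 lower beyond counting error, beside 12.5% and 9.3% of all measured genes. For the voltage-gated sodium and calcium channel genes, 2 of 30 measured were at least 1.5-fold higher and 0 lower, with a median of 0.15; the difference from the potassium channel genes was not tested.

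The intervals bound how far the level members can be called level. For 27 of 68 measured members the whole interval lay within 1.5-fold of level, and for 48 it lay within 2-fold. With 20 reads in all, the smallest excess beyond counting error is 3.54-fold, with 100 reads it is 1.56-fold and with 1000 reads 1.14-fold. The annotation lists 12 further Kcn symbols with no row in the table, among them Kcnn4, Kcne1 and Kcna7, and these are not analysed here.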

How the data were processed

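Per the labels' protocols, 2 ug of Trizol-extracted total RNA went into each TruSeq library. Bowtie2 2.2.3, TopHat2 2.0.12, HTSeq 0.6.0 and the build mm9 are named, with no roles, per the submitters' processing notes. Gene positions were identical to GENCODE M21 on GRCm38 for 15536 of 19720 genes and 57 of the 84 members, so coordinates are given as GRCm38. For the strand setting and multiply mapped reads, nothing is stated in the sources used here. The authors deposited raw read counts per gene, per the file headers. The authors' CPM columns divide each count, with 0 entered as 0.5 read, by a constant per library. A further deposited column gives the fold of control over knockout CPM as a ratio, and another its log2 value. The deposited p-value columns come from a test not given in the sources used here and are not printed.

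Symbols matched 19616 of 19720 identifiers. Counts were scaled by TMM in edgeR 4.0.16 (R 4.3.3) with a prior of 0.5 read. RPKM used exon lengths of GENCODE M21. With 1 library per genotype no test between genotypes was possible. Intervals were exact 95% Clopper-Pearson. They were run on simulated counts with Poisson error only, which checks the calculation and not the spread between animals or libraries. Named in full were members at least 1.5-fold apart beyond counting error, the 3 highest per length and both ends in each class; other members are given by reads. Values of some members are not reported here, although counts, sums and medians include them. Members, classes and lists were chosen with earlier results of these data known. Scripts ran in Python 3.11.15 with scipy 1.17.1, pandas 2.3.3, numpy 2.4.6 and, for plots, matplotlib 3.10.9. Alternatives were other scalings, including DESeq2 1.42.0 size factors and upper-quartile factors, other read minimums, a prior of 5 reads and a fold of 2.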

Additional observations from a re-analysis of the deposited data

How the results depend on the processing

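No paired analysis was possible because each genotype has 1 count column and the labels give no replicate numbers. The count of 5 members at least 1.5-fold higher became 3 with a minimum of 100 reads, 8 with no minimum and 2 at a fold threshold of 2. The count of 1 lower became 2 with scaling by library total, 3 with a minimum of 10 reads, 0 with a minimum of 100 reads and 10 with no minimum. The causes lie in the settings themselves, which change the scale, the genes counted or the line they must pass. Further alternatives were chosen after seeing the data. Leaving out members that share exon bases with another gene left 1 member lower beyond counting error in place of 2. The member dropped was Kcnh3, which shares only 0.017% of its exon bases. Leaving out chromosome 3 left 2 members at least 1.5-fold higher. For a count the limit was a 1.5-fold change, and for a median the typical distance from a single gene's ratio to its interval limit. Of the other alternatives for counts and medians, 81 stayed within these wide limits. Within them, the auxiliary median went from 0.07 to -0.10 with a minimum of 100 reads. Likewise, the 12 members higher beyond counting error became 9 with scaling by library total. The log2 ratio of each of the 26 genes that met the rule for full naming stayed inside its own main interval under all 4 alternatives run for it. The median of the members ranged from 0.03 to 0.09 over the alternatives run for it. Depth limits the 16 members under 20 reads, which enter none of the main counts of members higher, lower or level.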
